A study of Oryctolagus cuniculus with 34 samples.

Results

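The data described here are the effect of rotator cuff repair that rabbits shared over all weeks of the time course, measured in supraspinatus muscle as the left, operated shoulder minus the right shoulder of the same animal. It rests on 32 of the 34 libraries of the series, which form 16 of its 17 pairs, and on 11600 of the 23669 genes in the table. The pair of rabbit 3 (8 weeks) was left out because its left library did not pass the quality control of the study. The label of the right shoulder is control; the study methods describe it as unoperated, while the treatment label also speaks of a sham with a cut of the skin.

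All animals were skeletally mature female New Zealand White rabbits, which the study describes as about 6 months old. They were older when the muscle was taken, after 8 weeks of tenotomy and 1 to 8 weeks from the repair. In every one of them the left supraspinatus tendon was cut (tenotomy), left detached for 8 weeks and then repaired through bone tunnels, so that each left muscle carries the tear, the repair and both operations. The rabbits used were killed at 1 week (n = 4), 2 weeks (n = 5), 4 weeks (n = 4) or 8 weeks (n = 3) from the repair, which the time codes of the labels give as 81, 82, 84 and 88. The sample was a small piece from the center of the posterior lateral region of the muscle, a region picked by the study because it was the most affected in this model. No tenotomy without repair is among the samples, so the effects of the tear and of the repair cannot be told apart.

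The supraspinatus is a rotator cuff muscle that lifts the arm and stabilizes the shoulder joint. When its tendon is torn the fibers lose their load, and the muscle is known to shorten, to shrink and to gain connective tissue and fat, changes that often persist after the tendon has been reattached. Fibroblasts and fibro-adipogenic progenitors lay down collagen-rich matrix and can turn into adipocytes, macrophages clear debris and signal to both, and fibers rebuild their sarcomeres and mitochondria as load returns.

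Library totals lay between 9220035 and 21686112 counts on the repair side (median 12230103) and between 9859418 and 28395188 on the control side (median 10963624), and the repair library was the deeper of its pair in 8 of 16 rabbits. Genes with a CPM (counts scaled to library size) above 1 numbered 10300 to 12091 in repair and 9997 to 10797 in control libraries, with the higher number on the repair side in 14 of 16 pairs. Markers of skeletal muscle fibers were abundant in every library. The 10 tested under a gene symbol, of 14 listed, summed to 12604 to 67049 CPM in repair and 32631 to 107557 CPM in control muscle. Titles fall into 2 series, WRR for the rabbits of 1 and 8 weeks (7 pairs used) and X for those of 2 and 4 weeks (9 pairs). A difference between these weeks and a difference between the series therefore cannot be told apart. Depth differed as well, with 13262913 to 28395188 counts in the WRR libraries used and 9220035 to 12332438 in the X libraries. The pairs are different animals, so p-values measure the spread between rabbits.

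Pooled over the weeks, repaired muscle differed from the opposite shoulder in 5901 of 11600 genes (50.9%) at an adjusted p under 0.05, of which 3258 (28.1% of all genes) were higher and 2643 (22.8%) lower after repair (limma-voom with the rabbit as block, Benjamini-Hochberg adjustment over all genes). DE genes, which also need an absolute log2 fold change (log2FC) above 1, numbered 1124 (9.69%): 1056 were upregulated (9.1%) and 68 downregulated (0.586%), so that 94.0% of them were higher after repair. A gene moved in the same direction in all 16 pairs in 513 cases (4.42%), 320 higher and 193 lower. Of the DE genes, 567 had an average log2 CPM under 1, as had 1942 of all genes. Scaling by total counts alone, without TMM factors, shifted the median log2FC of all genes from 0.02 to 0.28, and then 88.9% of the called genes were higher in place of 55.2%. The repair library had the larger TMM factor in 13 of 16 pairs (0.874 to 1.41 in repair, 0.807 to 1.00 in control). Levels below are TMM-normalised CPM, which do not correct for gene length.

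**Figure D1:**
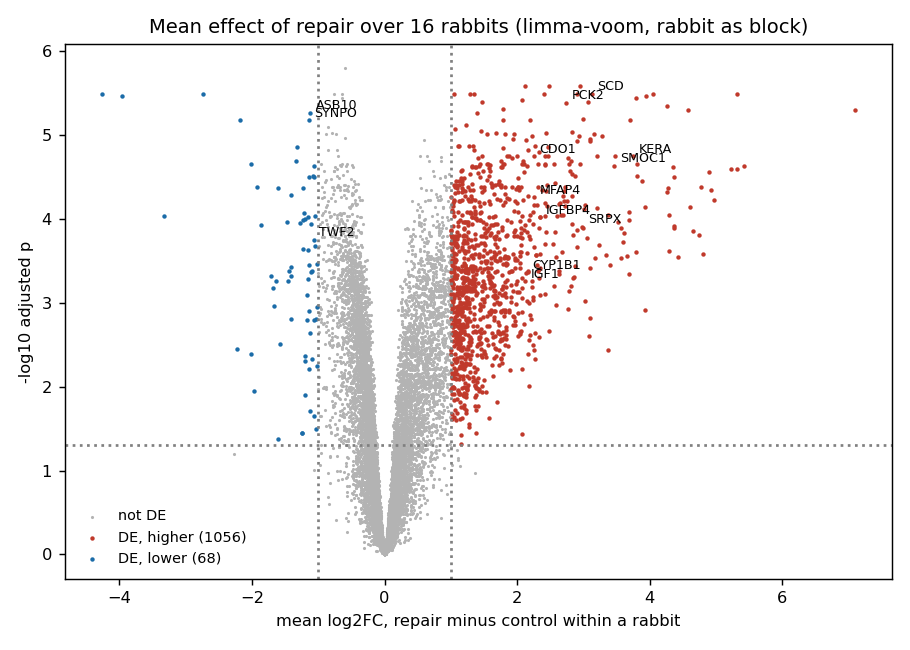
Mean log2FC of repair minus control within a rabbit (horizontal axis) against the negative log10 of the adjusted p (vertical axis) for 11600 genes, 1 point per gene. Red points are the 1056 DE genes that were higher and blue points the 68 that were lower after repair, dotted lines mark the thresholds, and leading genes with an absolute log2FC above 1 carry their names.

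Gene symbols are those of human orthologs and were at hand for 3310 of the genes tested (28.5%), for 42.9% of the upregulated and 22.1% of the downregulated DE genes. A large share of them came from a table of co-expression modules that the study built on the repair libraries. The named genes are therefore not an even draw from the transcriptome. Symbols came from shortened copies, so listed genes not found here may still be among the genes tested. Among genes with a symbol, a call and an average log2 CPM of at least 1, 119 were higher in all 16 pairs and 52 were lower in all 16 pairs; the 10 of each with the largest log2FC are described first.

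SCD, the desaturase that makes monounsaturated fatty acids, had 29.5 to 744 CPM after repair (median 157) and 3.71 to 67.1 CPM in control muscle (median 20.5). Its values overlapped between the sides, yet within a rabbit the repaired side was always the higher, by 0.55 log2 units in rabbit 1 (8 weeks) up to 5.23 in rabbit 63 (4 weeks). The mean log2FC was 3.13 ± 0.29 (SE, n = 16 pairs; adjusted p = 3.19e-06). A further gene ID with the symbol SCD rose by 1.48 ± 0.21 (adjusted p = 4.75e-05) and was higher in 15 of 16 pairs. Reads may be split between near-identical copies, so the levels of both are uncertain.

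PCK2, the mitochondrial phosphoenolpyruvate carboxykinase, reached 4.00 to 58.0 CPM after repair (median 17.2) and 1.16 to 5.90 CPM in control muscle (median 2.84). Only the lowest repair libraries lay within the control range. Its log2FC was 2.74 ± 0.28 (adjusted p = 4.1e-06). CDO1, which starts the breakdown of cysteine to taurine, had a median of 9.28 CPM against 1.80 CPM and rose by 2.26 ± 0.28 (adjusted p = 1.78e-05). CYP1B1, a cytochrome P450 of steroid and fatty acid metabolism, had a median of 4.27 CPM against 1.23 CPM and a log2FC of 2.14 ± 0.41 (adjusted p = 0.000434), with the control range of 0.439 to 3.43 CPM overlapping the repair range of 1.82 to 60.5 CPM.

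KERA, a small leucine-rich proteoglycan of cornea and tendon, had 0.687 to 543 CPM after repair (median 33) against 0.458 to 11.6 CPM in control muscle (median 3.02). It was higher in all 16 pairs, but by 0.03 and 0.08 log2 units in rabbits 64 and 60 (both 2 weeks) and by 7.61 in rabbit 59 of the same week. Its log2FC was 3.75 ± 0.46 (adjusted p = 1.78e-05). SMOC1, a calcium-binding matrix protein that modulates BMP signaling, rose by 3.46 ± 0.44 (adjusted p = 2.3e-05), from a control median of 0.735 CPM to 8.10 CPM. SRPX, a secreted sushi-domain protein, rose by 2.98 ± 0.48 (adjusted p = 0.000123), with 1.37 to 136 CPM after repair and 0.219 to 4.49 CPM in control muscle. MFAP4, a protein of elastic microfibrils, rose by 2.25 ± 0.33 (adjusted p = 5.48e-05), from a median of 12.0 to 39.1 CPM. Ranges of the paired shoulders overlapped for each of these 4 genes.

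IGF1, the growth factor that drives muscle hypertrophy, had 1.24 to 102 CPM after repair (median 7.34) and 0.229 to 4.11 CPM in control muscle (median 2.62). The paired difference ran from 0.20 in rabbit 61 to 7.02 in rabbit 59, both of 2 weeks, and the mean log2FC was 2.13 ± 0.42 (adjusted p = 0.000553). IGFBP4, which binds IGF1 and limits its access to the receptor, had 12.5 to 827 CPM after repair (median 63.7) against 6.89 to 25.4 CPM (median 12.0) and rose by 2.34 ± 0.36 (adjusted p = 9.49e-05). The receptor gene IGF1R was not called (log2FC 0.01).

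The 10 leading falls had a log2FC of -1.14 to -0.67. SYNPO, an actin-associated protein of Z-discs and podocytes, had 65.5 to 238 CPM after repair (median 150) and 225 to 419 CPM in control muscle (median 325). Repair and control ranges met only at their ends. Its log2FC was -1.14 ± 0.12 (adjusted p = 6.65e-06). ASB10, a member of the muscle-rich ASB family of ubiquitin ligase adaptors, had 4.75 to 22.9 CPM after repair (median 16.9) and 23.0 to 56.4 CPM in control muscle (median 31.2). Every repair library was below every control library. The sides did not overlap, in either direction, for 6 of 11600 genes (0.0517%). The log2FC of ASB10 was -1.12 ± 0.12 (adjusted p = 5.42e-06). The RNA helicase DHX35, singled out after its values were seen, was the only other of the 6 with a symbol, at 5.64 to 8.23 CPM after repair and 8.24 to 12.5 CPM in control muscle.

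TWF2, an actin-capping twinfilin, fell by 1.07 ± 0.18 on the log2 scale (adjusted p = 0.000177), from a median of 497 to 266 CPM. TCAP, the titin cap that anchors titin at the Z-disc, fell by 0.87 ± 0.17 (adjusted p = 0.000612), from 1840 to 3090 CPM in control muscle to 304 to 2959 CPM after repair. With the pair of rabbit 3 back in, TCAP was no longer called (log2FC -0.61, adjusted p = 0.0898). BNIP3, a receptor for the removal of mitochondria, fell by 0.78 ± 0.11 (adjusted p = 5.03e-05). SAMD4A, a translational repressor, fell by 0.77 ± 0.08 (adjusted p = 3.19e-06), from a median of 316 to 184 CPM. The last 4 were TMEM164 at -0.75, the zinc finger gene ZNF629 at -0.73, the ribosomal S6 kinase RPS6KA2 at -0.70 and the Golgi protein GOLGA4 at -0.67, each with an adjusted p of at most 0.000616. All 10 kept their negative sign and their call with total-count scaling.

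**Figure D2:**
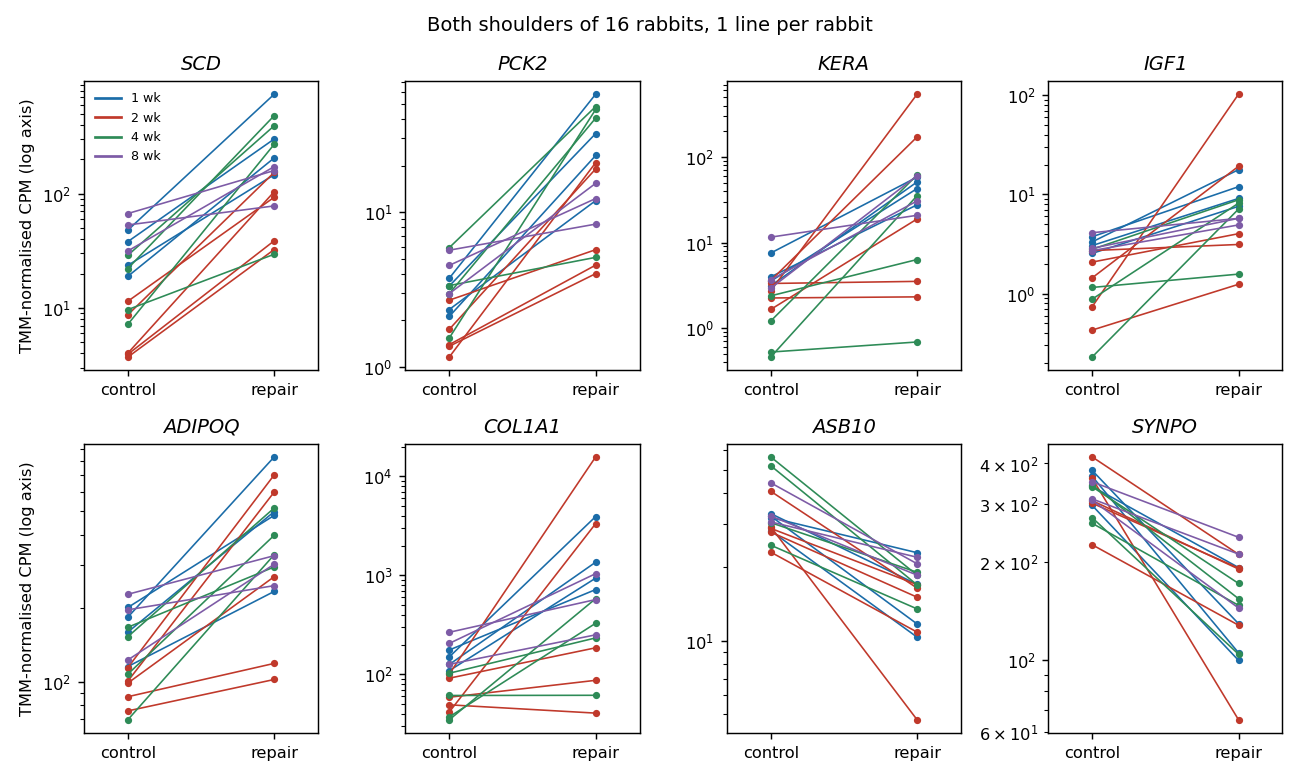
TMM-normalised CPM (log axis) in the control and the repaired shoulder of 16 rabbits, 1 line per rabbit and 1 color per week, for SCD (the ID of higher level), PCK2, KERA, IGF1, ADIPOQ, COL1A1, ASB10 and SYNPO. Lines rise in all 16 rabbits for the first 5 genes and in 15 for COL1A1, and fall in all 16 for ASB10 and SYNPO.

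Genes of the extracellular matrix were called higher in most of the members tested under a symbol. Of 30 listed collagen genes 19 were tested in this way, and 18 of them rose, none fell and COL15A1 was not called. The background is 28.1% of all genes higher. Of the 19, 16 were DE, and the median log2FC was 1.46 against 0.02 over all genes. This and the following lists were chosen with earlier results of these data known and hold only genes with a symbol. Of the 3310 genes with a symbol 453 were DE and higher, so all genes are an uneven background for the lists. COL11A1, a fibrillar collagen of cartilage and developing tendon, rose by 4.93 ± 0.69 (adjusted p = 4.45e-05), from a control median of 0.660 CPM to 17.3 CPM with a range of 0.393 to 725 CPM. COL1A1, the main collagen of tendon and scar, had 40.6 to 15722 CPM after repair (median 576) and 34.8 to 266 CPM in control muscle (median 102), was higher in 15 of 16 pairs and rose by 2.24 ± 0.47 (adjusted p = 0.000842). COL3A1, the collagen of loose and early repair tissue, rose by 1.46 ± 0.37 (adjusted p = 0.00355). Basement membrane chains rose too, COL4A1 by 1.09 and COL4A5 by 0.71, each in all 16 pairs.

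Of 25 listed genes of collagen folding, processing and crosslinking 13 were tested under a symbol, and all 13 rose. Of the 13, 7 were DE, and the median log2FC was 1.02. Over all genes 28.1% were higher and 9.1% DE and higher. Without the rabbit as block 10 of the 13 rose, and in the rabbits of 2 and 4 weeks alone 7 of 12. LOX, the oxidase that crosslinks collagen and elastin, had 3.14 to 460 CPM after repair (median 20.3) against 2.06 to 14.1 CPM (median 6.88) and rose by 2.33 ± 0.38 (adjusted p = 0.000128). PLOD2, which hydroxylates telopeptide lysines, rose by 1.53 ± 0.28 (adjusted p = 0.000331). ADAMTS3, a procollagen peptidase, rose by 2.91 ± 0.34 (adjusted p = 1.16e-05) in all 16 pairs from a low level, 0.110 CPM at the median in control and 0.868 CPM in repaired muscle.

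Of 45 gene IDs for matrix glycoproteins and proteoglycans 43 rose, none fell, and TNXB and FBLN2 were not called; 29 were DE. Over all genes 28.1% were higher and 9.1% DE and higher. FBLN7, a cell-adhesive fibulin, had 1.32 to 939 CPM after repair (median 53.5) against 0.229 to 9.82 CPM (median 3.06), and its log2FC was 4.57 ± 0.48 (adjusted p = 4.94e-06). PRELP, a proteoglycan that anchors basement membranes, rose by 2.13 ± 0.25 (adjusted p = 1.16e-05). FN1, fibronectin, had 40.7 to 6115 CPM after repair and 41.1 to 328 CPM in control muscle, and rose by 1.33 ± 0.38 (adjusted p = 0.00767). Among 22 proteases and inhibitors of the matrix 18 rose, none fell and 13 were DE. The protease ADAMTS12 rose by 2.63 ± 0.39 (adjusted p = 6.6e-05), while TIMP3, an inhibitor of metalloproteases bound to matrix, rose by 0.67 ± 0.11 (adjusted p = 0.000151) in all 16 pairs, from a median of 115 to 202 CPM.

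Ligands, receptors and antagonists of TGF-beta and BMP signaling moved less uniformly. Of 23 tested genes 13 rose, 2 fell and 8 were not called, with a median log2FC of 0.51, beside 28.1% of all genes higher and 22.8% lower. The type II receptor TGFBR2 rose by 1.02 ± 0.17 (adjusted p = 0.000157) in all 16 pairs, from 19.6 to 61.1 CPM in control muscle to 34.1 to 239 CPM after repair. CHRDL1, a secreted BMP antagonist, rose by 1.69 ± 0.25 (adjusted p = 5.72e-05), also in all 16 pairs. The ligand TGFB1, a main driver of fibrosis, had a log2FC of 0.64 ± 0.21 (adjusted p = 0.0182) but was no longer called without rabbit 7 (adjusted p = 0.0631), by edgeR (adjusted p = 0.0567), without rabbits 59 and 62 (adjusted p = 0.0756) or without the libraries of 1 or of 2 weeks (adjusted p = 0.123 and 0.0941). The genes that fell were the BMP co-receptor RGMA (log2FC -0.31) and the inhibitory SMAD6 (log2FC -0.40), neither of them called without the block (adjusted p = 0.0957 and 0.0793). By edgeR SMAD6 was not called either (adjusted p = 0.0715). Leaving out rabbit 5, 6 or 7 ended the call of SMAD6 (adjusted p = 0.0559, 0.0662 and 0.0513), and with total-count scaling 17 genes of this list rose and none fell. Without rabbits 59 and 62, a setting chosen after their values were seen, 7 rose and 2 fell.

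Markers of other cell types rose beside these groups, and their part in the matrix changes was not tested. Some genes are in a matrix list and a marker list: COL1A1 and COL3A1 are also fibroblast markers, and COL11A1 is also a tendon marker. The marker sums therefore include collagens. In bulk muscle, fewer cells of a type and less RNA per cell cannot be told apart. Of 14 fibroblast and fibro-adipogenic progenitor markers 13 rose and 11 were DE, the exception being GLI1, beside 28.1% of all genes higher and 9.1% DE and higher. Their summed level was 602 to 43063 CPM after repair (median 3199) and 576 to 2166 CPM in control muscle (median 1130), higher in 14 of 16 pairs. PDGFRA, the receptor that marks these progenitors, rose by 1.13 ± 0.28 (adjusted p = 0.00259), and DPT, the collagen-binding dermatopontin, by 1.85 ± 0.33 (adjusted p = 0.000294). All 7 tendon markers tested under a symbol, of 9 listed, were DE and higher, with a median log2FC of 3.37. Without rabbits 59 and 62 the median was 2.20 with 6 of 7 called; edgeR and the fit without the block also called 6, with medians of 2.54 and 2.34. Their sum was 34.8 to 3573 CPM after repair and 39.1 to 311 CPM in control muscle. The tenogenic factor MKX rose by 2.57 ± 0.35 (adjusted p = 3.76e-05) and the tendon proteoglycan FMOD by 3.81 ± 0.51 (adjusted p = 3.1e-05). TNN, also of this list, was higher in only 9 of 16 pairs (log2FC 3.37).

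Of 38 markers of macrophages and other myeloid cells 34 rose, none fell and 28 were DE, with a median log2FC of 1.35. No member moved the same way in all 16 pairs, against 4.42% of all genes. Their summed level was 36.0 to 1183 CPM after repair (median 127) and 41.6 to 152 CPM in control muscle (median 64.7), higher in 13 of 16 pairs. In a fit without the rabbit as block 17 of the 38 rose, and 29 of 36 did without rabbits 59 and 62. SIGLEC1, a sialic acid receptor of macrophages, rose by 1.32 ± 0.25 (adjusted p = 0.000415), TLR2, a receptor for bacterial lipoproteins, by 2.17 ± 0.41 (adjusted p = 0.000415), and the interleukin-10 receptor chain IL10RA by 1.67 ± 0.32 (adjusted p = 0.000432). CD163, the haemoglobin scavenger receptor, rose by 2.19 ± 0.53 (adjusted p = 0.00244), a value that was 1.35 without rabbit 59. It was not called without the block (adjusted p = 0.0882) or in a fit of 33 libraries that took the rabbit as a random effect and added the right shoulder of rabbit 3 (adjusted p = 0.0843). Of 7 lymphocyte markers CD40, ITGB7 and TRBC1 rose, RASGRP1 fell (log2FC -0.52) and 3 were not called, beside 28.1% of all genes higher and 22.8% lower. With total counts RASGRP1 was no longer called (log2FC -0.24, adjusted p = 0.23), and edgeR called 1 of the 7 higher. Without rabbits 59 and 62, 1 of 6 rose. Leaving out rabbit 5, 6, 7, 8, 62, 63 or 64 ended the call of ITGB7, with an adjusted p of up to 0.0871 without rabbit 7.

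Adipocyte markers were the only cell type list whose summed level was higher in every pair. Of 15 listed members 6 were tested under a symbol, and all 6 were higher, 4 of them in all 16 pairs. Over all genes 28.1% were higher and 4.42% moved one way in all 16. The sum of the 6 was 348 to 1316 CPM after repair (median 680) against 163 to 406 CPM (median 309). ADIPOQ, the adipocyte hormone adiponectin, had 102 to 834 CPM after repair (median 330) and 69.7 to 228 CPM in control muscle (median 119), and rose by 1.37 ± 0.18 (adjusted p = 2.37e-05). Its paired difference was smallest in rabbit 1 (0.33) and largest in rabbit 62 (2.62). HCAR1, the lactate receptor that restrains lipolysis, rose by 2.15 ± 0.28 (adjusted p = 2.3e-05), and THRSP, a regulator of lipid synthesis in fat, by 2.42 ± 0.31 (adjusted p = 2.24e-05). The fat mobilizing lipase LIPE rose by 1.63.

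Of 21 gene IDs for lipid synthesis 9 rose, 4 fell and 8 were not called, with a median log2FC of 0.28. Over all genes 28.1% were higher and 22.8% lower. Beside both SCD entries and THRSP the rises included ACLY (0.67, all 16 pairs), which makes cytosolic acetyl-CoA. Of the 4 that fell, SREBF2, the master factor of cholesterol synthesis, had a log2FC of -0.28, and the phosphomevalonate kinase PMVK was at -0.24. With total-count scaling none of the 4 was called, 15 members were higher, and PMVK turned to 0.011. With all 34 libraries 5 members rose and 2 fell, and in the rabbits of 1 and 8 weeks alone 4 and 2. SREBF2 was called in neither setting (limma-voom, adjusted p = 0.308 and 0.0667).

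Mitochondrial genes fell together by small amounts. Of 28 gene IDs of the tricarboxylic acid cycle and respiratory chain 24 fell, none rose and 4 were not called, against 22.8% of all genes lower, and the median log2FC was -0.40. Both IDs of MT-ND4L, a complex I subunit, hold identical values and amount to 1 measurement. UQCRC1, a core subunit of complex III, had 179 to 530 CPM after repair (median 363) and 368 to 648 CPM in control muscle (median 487), and fell by 0.50 ± 0.09 (adjusted p = 0.000347). COX10, which makes the haem of complex IV, fell by 0.60 ± 0.10 (adjusted p = 0.000126) in all 16 pairs, from 27.3 to 47.3 CPM to 13.9 to 39.9 CPM. Of 28 mitochondrial ribosomal proteins 23 fell and none rose (median log2FC -0.31), with MRPS18B at -0.55 ± 0.08 (adjusted p = 4.58e-05) and MRPS30 lower in all 16 pairs. Fatty acid oxidation had 7 falls and 1 rise among 17 gene IDs. HSD17B10, a mitochondrial dehydrogenase, was the largest fall (-0.42), and the carnitine carrier SLC25A20 the rise (0.30). With total-count scaling 9 of the 28 respiratory, 4 of the 28 ribosomal and none of the 17 oxidation genes fell, while 6 of the 17 rose. With the pair of rabbit 3 back in, the falls numbered 11, 7 and 3. Without rabbits 59 and 62 they numbered 19, 21 and 4.

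Genes of sarcomere, triad and muscle cytoskeleton fell in 14 of 28 cases, rose in 1 and were not called in 13, with a median log2FC of -0.41, beside 22.8% of all genes lower and 28.1% higher. LDB3, a Z-disc protein, fell by 0.74 ± 0.18 (adjusted p = 0.00245), and PDLIM5, another Z-disc adaptor, by 0.65 ± 0.15 (adjusted p = 0.00157). The rise was MYH8, the perinatal myosin heavy chain of regenerating fibers, which had 27.2 to 926 CPM after repair (median 106) and 18.6 to 271 CPM in control muscle (median 35.7). It was higher in 13 of 16 pairs with a log2FC of 1.72 ± 0.41 (adjusted p = 0.00226). Of 10 fiber markers 4 fell and none rose, but the falls numbered 2 by edgeR, with total counts and without rabbits 59 and 62, 1 with all 34 libraries, and 7 without rabbits 68 and 1. With total-count scaling 7 of the 28 sarcomere genes fell and 4 rose, and without rabbits 59 and 62, 9 fell and 3 rose.

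Of 20 myogenic factors and growth signals 9 rose and 5 fell, beside 28.1% of all genes higher and 22.8% lower. HGF, which activates satellite cells, rose by 1.72 in 14 of 16 pairs, and the receptor BOC, which supports myoblast fusion, by 1.09. FGF6, a growth factor made by muscle, fell by 1.41 ± 0.27 (adjusted p = 0.000472), from 6.29 to 22.1 CPM (median 13.9) to 1.65 to 15.4 CPM (median 3.76). The growth hormone receptor GHR fell by 0.49 ± 0.11 (adjusted p = 0.00198), and DAG1, which links fiber and matrix, by 0.27 ± 0.07 (adjusted p = 0.00375) in all 16 pairs. DAG1 was no longer called with total-count scaling. Of 18 genes of glycolysis and glycogen 7 fell and 3 rose. PPP1R3B, which targets a phosphatase to glycogen, had a log2FC of -1.48 ± 0.23 (adjusted p = 0.000108) and hexokinase HK2 one of -0.64 ± 0.10 (adjusted p = 0.000106), while PCK2, PFKP (1.11) and the brain form of glycogen phosphorylase PYGB (0.86) rose. Of 18 proteasome genes 11 fell and 3 rose, against the same background. The immunoproteasome subunit PSMB8 (0.50) and the activator subunits PSME1 (0.30) and PSME2 (0.19) were the rises. The call of PSMB8 ended without the rabbit as block (adjusted p = 0.0597), and that of PSME2 with median-ratio factors, by DESeq2, without the block and, among single rabbits, without rabbit 5, 6, 7, 8 or 64 (adjusted p up to 0.0757 without rabbit 64). PSME1 was not called without a filter (limma-voom, adjusted p = 0.0685) or without the libraries of 1 or of 8 weeks (0.152 and 0.068). In the rabbits of 2 and 4 weeks alone PSME1 was not called either (adjusted p = 0.395). With total-count scaling the proteasome list had 5 rises and 1 fall, with all 34 libraries 2 and 4, and in the rabbits of 1 and 8 weeks alone 2 and 0.

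**Figure D3:**
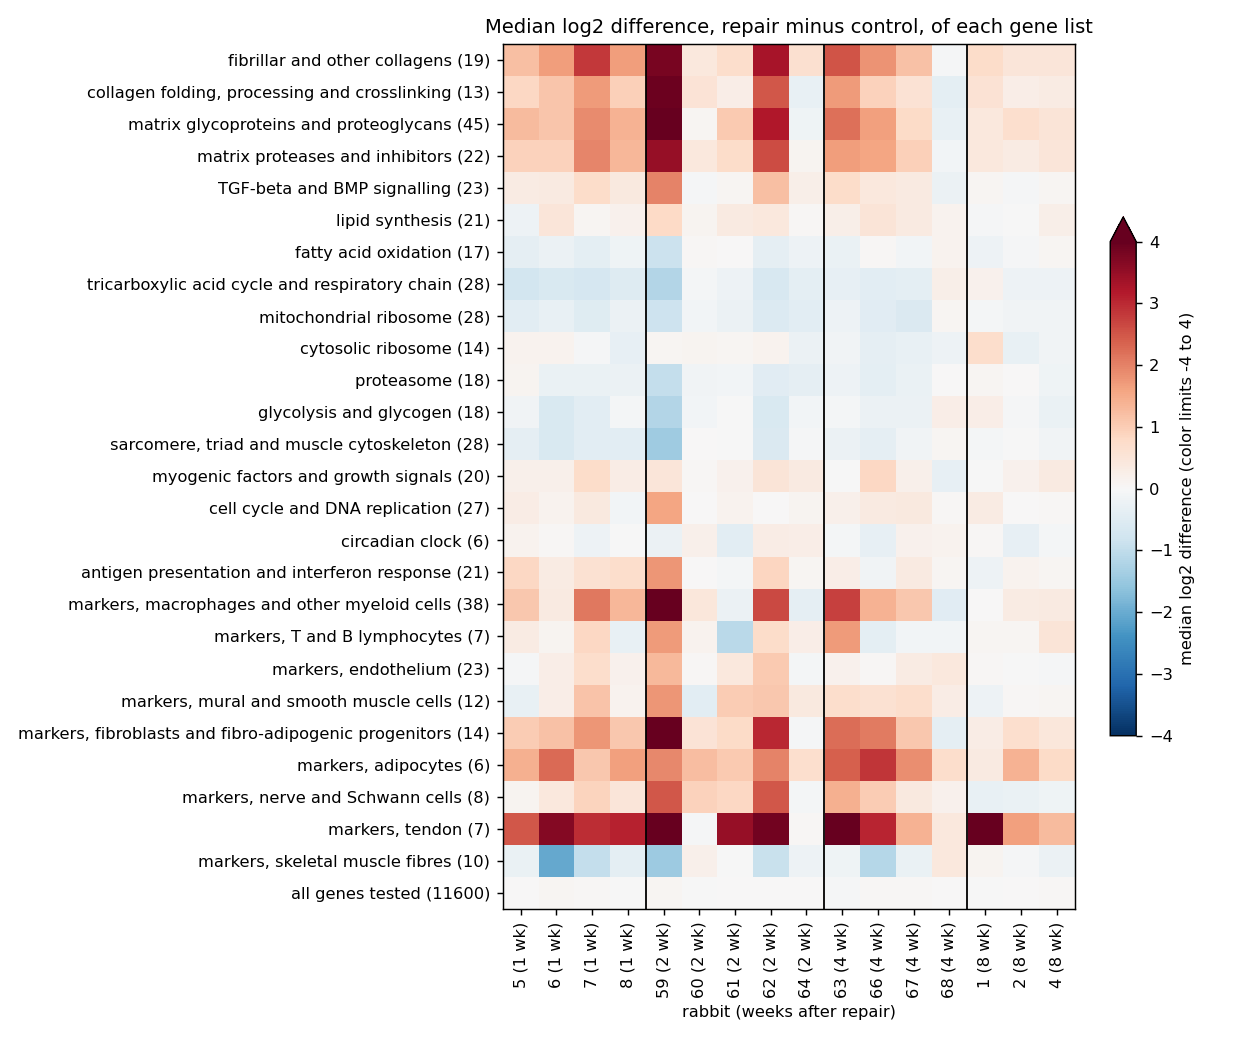
Median paired log2 difference, repair minus control, over the members of each gene list (vertical axis, number of members in parentheses) in each of 16 rabbits (horizontal axis, ordered by week, black lines between weeks). Red is higher and blue lower after repair, and colors saturate at 4; the tendon markers, for example, run from -0.05 in rabbit 60 to 6.98 in rabbit 59 (both 2 weeks), with 4.36 in rabbit 1 (8 weeks).

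Rabbits differed in the size of the effect within a week. Over the 19 collagen genes the median paired difference was 3.80 in rabbit 59, -0.04 in rabbit 68 (4 weeks) and 1.19 at the median rabbit, and it was above 0 in 15 of 16 rabbits. For the macrophage markers it ran from -0.46 in rabbit 68 to 4.34 in rabbit 59 and was above 0 in 13 rabbits. Adipocyte markers were above 0 in all 16 rabbits, from 0.36 in rabbit 1 to 2.86 in rabbit 66 (4 weeks). The median over the respiratory chain genes was below 0 in 14 rabbits, with -1.16 in rabbit 59 and values of 0.24 and 0.17 in rabbits 68 and 1. In rabbit 1 (8 weeks), the tendon markers had a median of 4.36 beside 0.73 for collagens.

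To see whether the shared effect held in an animal that had no part in estimating it, each rabbit was left out and the direction of its differences set against the fit of the other 15. Of the genes called there, 51.9% to 94.6% moved the same way in the rabbit left out (median 84.7%). The range was 85.7% to 94.6% at 1 week and 74.3% to 94.0% at 2 weeks. At 4 weeks it was 54.9% to 88.6%, while the 8-week rabbits had 51.9% to 81.0%. Rabbit 68 (54.9%) and rabbit 1 (51.9%) stood near even odds, and all others were at 74.3% or more. Over the genes that were DE and higher in the other 15, the median difference of the rabbit left out was above 0 in each of the 16, from 0.03 in rabbit 68 to 3.66 in rabbit 59. The 1-week rabbits had 1.27 to 1.97 and the 8-week rabbits 0.40 to 0.69, while the ranges of the rabbits of 2 weeks (0.45 to 3.66) and 4 weeks (0.03 to 2.08) overlapped both. Over the genes that were DE and lower, the 1-week rabbits (-1.82 to -0.85) and the 8-week rabbits (-0.89 to -0.43) overlapped. No p-value is attached to these shares, since the 16 fits share most of their animals.

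**Figure D4:**
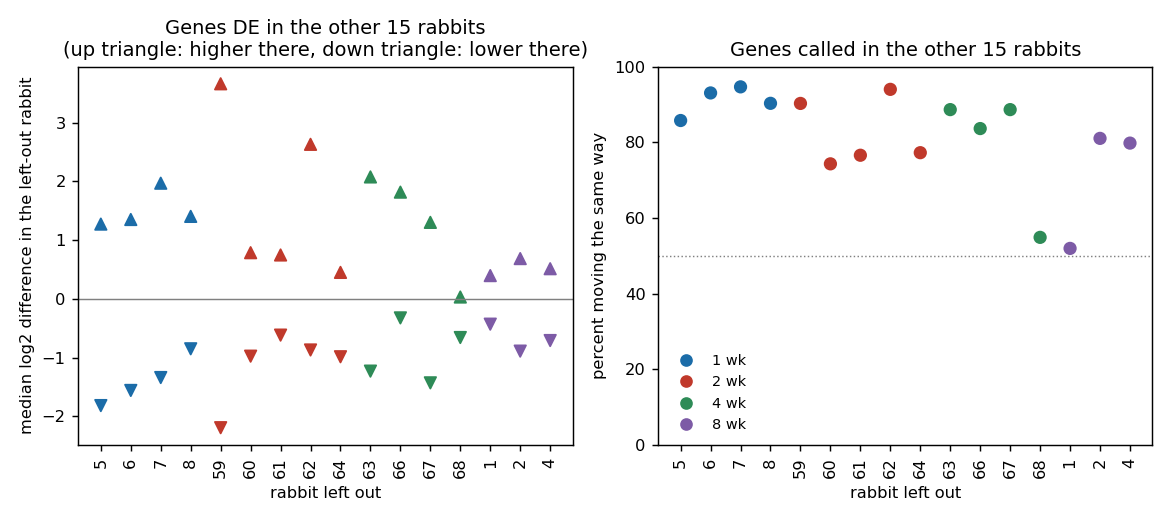
Left, median log2 difference in each left-out rabbit over genes that were DE in the other 15 rabbits, higher there (up triangles) or lower there (down triangles). Right, percent of genes called in the other 15 that moved the same way in the rabbit left out, with a dotted line at 50%, and colors for the week after repair; rabbits 68 and 1 lie nearest to that line.

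Whether the effect differed between weeks was tested gene by gene with the rabbit as block. None of 11600 genes was called (limma-voom, lowest adjusted p = 0.231), with 1406 genes (12.1%) at an unadjusted p under 0.05. edgeR's quasi-likelihood test also called 0, DESeq2 called 34, and limma with sample quality weights 36. The sizes of the point estimates were nevertheless unequal. In the same model 3374 genes (29.1%) were called at 1 week and 3845 (33.1%) at 2 weeks. At 4 weeks 351 genes (3.03%) were called, and at 8 weeks, with 3 pairs, 2 genes (0.0172%). The median week-specific log2FC of the 1056 upregulated genes was 1.62, 2.12, 1.36 and 0.60 at 1, 2, 4 and 8 weeks, and that of the 68 downregulated genes was -1.54, -1.29, -1.18 and -0.86. The estimates had the same sign at all 4 weeks for 994 of the 1056 and 66 of the 68, against 6069 of 11600 genes overall; the choice of the DE genes used the same libraries, so these values are a description.

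SCD had estimates of 3.22, 3.69, 3.97 and 1.41 at 1, 2, 4 and 8 weeks (adjusted p of the difference between weeks = 0.29), and SRPX of 2.71, 5.40, 2.86 and 0.97 (adjusted p = 0.24), both from limma-voom. SAMD4A had estimates of -0.76, -0.84, -0.79 and -0.57, and TIMP3 of 0.72, 0.85, 0.55 and 0.47. MYH8 had 2.82, -0.10, 2.98 and 1.73. The genes named for the lowest adjusted p between weeks were AOAH, an enzyme that inactivates endotoxin (2.33, 5.01, 3.81 and 0.65), CD163 (1.26, 5.08, 1.66 and 0.66), CYP27A1, the mitochondrial sterol hydroxylase (1.96, 0.37, 0.54 and 0.49), GPRC5A, a retinoic acid-induced receptor (1.97, 2.03, 0.11 and 0.16), and SEPTIN11 (1.19, 0.86, 0.05 and 0.27), each with an adjusted p of 0.23 for the difference.

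**Figure D5:**
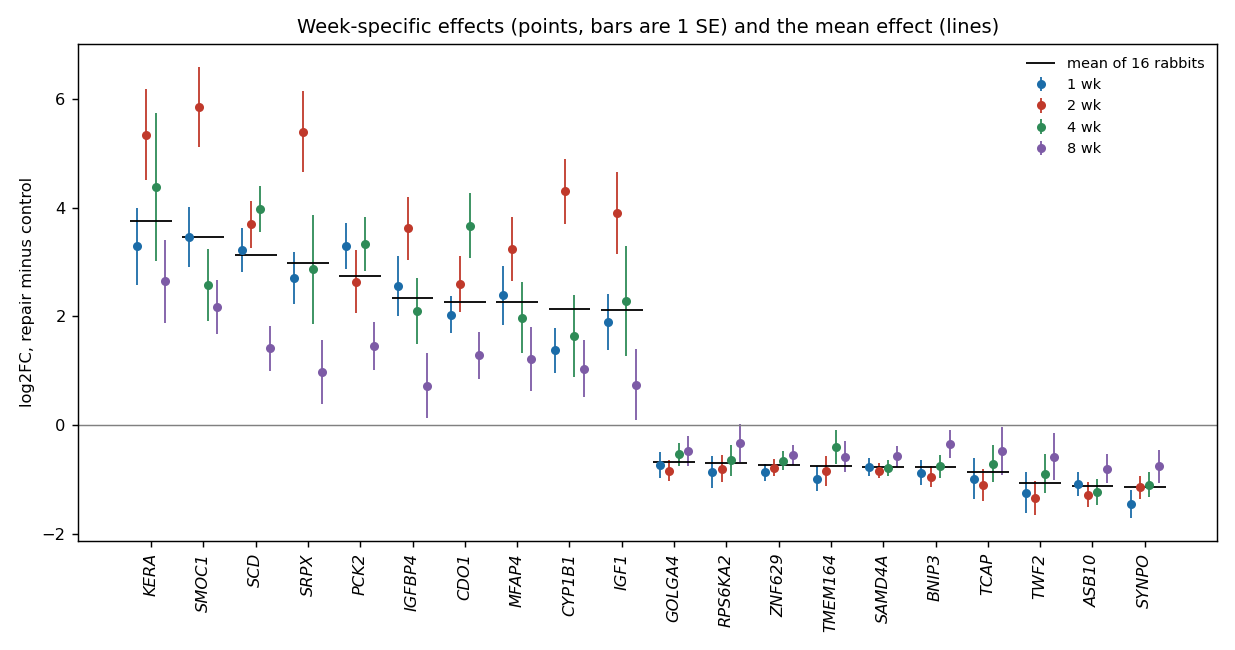
Week-specific log2FC of repair minus control (points, bars are 1 SE) for the 10 leading rises and 10 leading falls, with the mean effect over 16 rabbits as a black line. The 8-week point lies nearest to 0 for all 10 rises and for 9 of the 10 falls (the exception is TMEM164, at 4 weeks), and error bars of different weeks often overlap.

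Between the title series no gene was called either (limma-voom, lowest adjusted p = 0.381), with 1062 genes at an unadjusted p under 0.05; edgeR called 0 and DESeq2 1. Several genes tied at that adjusted p, among them the caspase recruitment domain gene CARD6, whose effect was lower in the series of 1 and 8 weeks by 2.44 on the log2 scale (adjusted p = 0.38), CD163 (lower by 3.41), AOAH (lower by 2.95), the coagulation factor subunit F13A1 (lower by 1.79), NCKAP5 (lower by 0.94) and SHROOM4 (lower by 0.59). Fitted alone, the 7 pairs of 1 and 8 weeks gave 643 DE genes and the 9 pairs of 2 and 4 weeks 1142, from 11055 and 11119 genes. The libraries of the former were also the deeper. Of the DE genes in the former 90.05% were higher. Of 17 collagen genes that passed the filter in each, 14 and 16 rose, and so did all 5 adipocyte markers in both. Over all genes, 1724 of 11055 were called higher in the former fit and 2048 of 11119 in the latter.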

How the data were processed

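The authors deposited expected counts from RSEM for each gene, derived from 75 base single reads of stranded mRNA libraries with STAR 2.5.1a (OryCun2.0) and RSEM 1.3.0 (Ensembl annotation 91); 8.35% are not whole and none was scaled. Columns were matched to samples by title. Genes with CPM over 1 in at least 5 of 32 libraries entered limma-voom after TMM scaling, in R 4.3.3 with edgeR 4.0.16 and limma 3.58.1, with a coefficient for each rabbit and 1 for repair. Moderated statistics gave the p-values, adjusted by Benjamini-Hochberg over 11600 genes. The study fitted groups without the rabbit and kept genes with CPM over 1 in 1 library. Counts were rounded for edgeR's quasi-likelihood test and DESeq2 1.42.0. Left and right libraries with 1 number come from 1 animal; their residuals correlated at 0.0248 to 0.443 (median 0.282), and for 15 of 16 rabbits no other control of the week correlated more. No library duplicates another.

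On simulated counts of 11600 genes the mean effect test called 89 of 100 genes changed 2-fold and 99 of 100 changed 4-fold. It called 14 of 11400 unchanged genes. The changed genes rose or fell at random, by the same amount in every rabbit. A mostly upward change, or an effect that differs between rabbits, was not simulated. Named genes are the 10 largest rises and falls with a symbol, average log2 CPM of at least 1 and the same direction in all 16 pairs, up to 3 members of each list with the smallest adjusted p, called members against the direction of their list, genes of a study figure, and the 5 with the smallest adjusted p between weeks and between series; some further list members were picked after their values were seen, and a few genes that this rule names are not reported here. The members and the 26 gene lists were chosen with earlier results of these data known. Symbols are from shortened copies of the supplementary tables of the study (1863 IDs in one and 1794 in the other). None was in conflict among the 347 IDs in both. Their columns of fold changes and p-values were not used. A gene without a symbol here may have one in the full tables. Coordinates are not given, since the reference at hand is of another assembly. Alternatives covered filters, scaling, tests, the block, weights, weeks, series and each rabbit. Figures were drawn with matplotlib 3.10.9.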

Additional observations from a re-analysis of the deposited data

Results flagged for a closer look

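Paired differences of the 20 leading genes, and the values of the left-out rabbits, were compared within each week of 4 or 5 rabbits. In 9 of 69 such groups 1 rabbit lay far from the rest. Among independent groups chance gives about 1 in 20. These groups share the same rabbits and the genes were picked from these values, so that rate cannot be set against the 9. Of the 9, 6 concern rabbit 59 (2 weeks). Its difference was -1.93 for BNIP3 (others -0.86 to -0.46), -2.42 for RPS6KA2 (others -0.76 to -0.14), -2.46 for SYNPO (others -0.99 to -0.66), -2.94 for TCAP (others -0.85 to -0.09) and -3.36 for TWF2 (others -1.05 to -0.43). Its median over genes that were DE and lower in the other 15 rabbits was -2.20 (others -0.99 to -0.62). In rabbit 68 (4 weeks) 54.9% of the genes called in the others moved the same way (others 83.6% to 88.6%), and its RPS6KA2 difference was -0.21 (others -0.83 to -0.78). In rabbit 7 (1 week) IGF1 was higher by 2.41 (others 1.56 to 1.67).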

How the results depend on the processing

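The mean effect gave 1124 DE genes. Leaving out 1 rabbit at a time gave 846 (without rabbit 59) to 1206 (without rabbit 1) DE genes, of which 92.5% to 94.9% were higher, against 94.0% with all. The count was 643 with the rabbits of 1 and 8 weeks alone and 718 without rabbits 59 and 62, and the other settings stayed within 1.5 times of it. Without the replicate block DE genes numbered 955, of which 91.9% were higher. The share higher was also 91.5% without a filter, 98.4% with total counts, 92.2% by DESeq2, 91.9% with the rabbit as a random effect over 33 libraries, 91.9%, 91.02% and 92.3% without the libraries of 1, 2 or 8 weeks, 90.05% with the rabbits of 1 and 8 weeks alone, 92.1% without rabbits 59 and 62 and 92.3% without rabbits 68 and 1. The last 2 settings were chosen after seeing the data. With all 34 libraries 3714 genes were called in place of 5901, and 1124 were DE. Genes called between weeks numbered 1 without a filter, 34 by DESeq2 and 36 with quality weights, and between series 1 without a filter, 1 by DESeq2 and 0 to 1 when a rabbit was left out (1 without rabbit 66). Total counts turned NR1D1 to 0.022, PMVK to 0.011, RFC3 to 0.12 and RPS15 to 0.015. RPS15 was 0.032 with all 34 libraries, and SHROOM4 was -0.037 with the rabbits of 1 and 8 weeks alone. The cause of these shifts was not tested. Of 119 named genes 98 kept direction and call with total counts, 107 without the block, 114 by edgeR and 118 by DESeq2. Of the DE genes 567 had an average log2 CPM under 1, where few counts stand behind a value; with edgeR's filterByExpr, which tested 10909 genes, 828 were DE.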

Other observations

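Of 27 genes of cell cycle and DNA replication 10 rose, 3 fell and 14 were not called (background 28.1% of all genes higher and 22.8% lower). With total counts 17 rose and 1 fell, and without rabbits 59 and 62, 7 of 25 rose and 1 fell. TOP2A, the topoisomerase of dividing cells, rose by 1.86 ± 0.33 (adjusted p = 0.000281, limma-voom), from a control range of 0.207 to 1.25 CPM to 0.661 to 20.6 CPM after repair, and the mitotic kinase MASTL by 1.15 ± 0.22 (adjusted p = 0.00041), each in 15 of 16 pairs. Of 21 genes of antigen presentation and interferon response 12 rose and none fell. The rises numbered 20 with total counts, 7 without the rabbit as block, 6 of 19 in the rabbits of 1 and 8 weeks alone and 6 of 20 in those of 2 and 4 weeks. The class II chain HLA-DQB1 rose by 1.98 ± 0.39 (adjusted p = 0.000592) in 12 of 16 pairs. Their summed level was 242 to 703 CPM after repair and 239 to 351 CPM in control muscle.

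Of 23 endothelial markers 14 rose and none fell, with a median log2FC of 0.32, beside 28.1% of all genes higher and 22.8% lower. With all 34 libraries 8 rose, and in the rabbits of 1 and 8 weeks alone 3 rose and 2 fell. PLXND1, a semaphorin receptor of vessels, rose by 0.56 ± 0.11 (adjusted p = 0.000679) in all 16 pairs, whereas the endothelial cadherin CDH5 was not called (log2FC 0.22). Of 12 mural cell markers 7 rose, and HEYL, a Notch target of these cells, fell by 0.38 ± 0.07 (adjusted p = 0.000289). With total counts HEYL was no longer called. Only 3 of 11 mural markers rose in the rabbits of 1 and 8 weeks alone, and 1 fell. Of 8 nerve and Schwann cell markers 4 rose, among them the axonal adhesion protein CNTN1 (2.00 ± 0.33, adjusted p = 0.000157, all 16 pairs), and the ubiquitin hydrolase UCHL1 of neurons fell by 0.87 ± 0.18 (adjusted p = 0.000907). Among these 8, 2 rose and 0 fell in the rabbits of 1 and 8 weeks alone, where UCHL1 was not called (limma-voom, adjusted p = 0.224). Of 6 clock genes NR1D1 was the only call (log2FC -0.22, adjusted p = 0.0188), and of 14 cytosolic ribosomal gene IDs RPS15 was the only call (log2FC -0.23, adjusted p = 0.0322). NR1D1 was not called without the block (adjusted p = 0.415) or in a fit of 33 libraries that took the rabbit as a random effect and added the right shoulder of rabbit 3 (adjusted p = 0.641). RPS15 was not called in either of these limma-voom fits (adjusted p = 0.0881 and 0.0531). NR1D1 and RPS15 turned positive with total counts, and leaving out rabbit 2, 61, 66, 67 or 68 ended the call of RPS15, with an adjusted p of up to 0.0669.

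Of 37 genes that a figure of the study shows, 11 could be tested under a symbol here, and all 11 rose, beside 28.1% of all genes; the other members were not analysed here. In the rabbits of 2 and 4 weeks alone 6 of 10 rose. Of the 6 genes whose repair and control libraries did not overlap, 4 have no symbol. The most abundant of these, ENSOCUG00000015483, had 184 to 882 CPM after repair and 59.96 to 153 CPM in control muscle (log2FC 1.78, adjusted p = 6.65e-06), and ENSOCUG00000004687 had 7.17 to 82.9 CPM against 2.08 to 6.23 CPM (log2FC 2.12); both were picked after their values were seen.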
